A study of Homo sapiens with 6 samples.

Results

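The selenoprotein genes and the genes that make and insert selenocysteine were examined in erastin-treated ARPE-19 cells, an established human RPE line, with and without VK1. The gene set was fixed by symbol: 25 genes of the human selenoproteome and 6 further genes of selenocysteine synthesis and insertion, 31 in all. Of these, 28 have a row among the 33496 genes of each library, and 24 reach the mean of at least 1 FPKM (fragments per kilobase of transcript and scaled to the fragments that mapped) that was required for a test. DIO3, GPX6 and SELENOV were not analysed here. PSTK, SELENOP, DIO1 and GPX2 have a row but a mean under 1 FPKM.

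Both groups were wild-type ARPE-19 treated with erastin, an inhibitor of the cystine importer system xc-, at 5 μM for 24 h. The 3 Era libraries received erastin alone, and the 3 Era+VK libraries came from cells that were also given VK1 (vitamin K1, 10 μM) for 1 h beforehand. No erastin-free library was analysed here, and each difference below therefore compares VK1 with no VK1 under erastin, in 1 cell line. VK1 was dissolved in ethyl alcohol, and whether the Era cells received that vehicle is not given in the sources used here.

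Between 11924 and 12027 genes per library reached 1 FPKM, and mitochondrially encoded genes held 16.0% to 18.5% of the summed FPKM. The depth of the libraries is unknown, because FPKM carry no counts and clear steps of whole reads could not be read from the low values. Of the markers of native RPE, OTX2 was at 27.5 to 31.4 FPKM and MITF at 15.5 to 18.6 FPKM in the 6 libraries, whereas RPE65, the isomerase of the visual cycle, was at 0.02 FPKM or less. The 13 native RPE markers with a row summed to 48.5 to 107.2 FPKM. Of these, RLBP1, LRAT, TYR, TYRP1, SERPINF1, STRA6 and MERTK were under 1 FPKM in every library, and RDH5 and PMEL were at 1.07 to 2.48 FPKM. BEST1, a chloride channel of RPE, was at 57.0 FPKM in Era replicate 3 and 36.5 FPKM in Era+VK replicate 1, against 0.60 to 4.80 FPKM in the other 4 libraries, and its part in the differences below was not tested. Embryonic and fetal haemoglobin genes set 2 libraries apart: the summed level of 10 erythroid markers was 0.07 to 0.21 FPKM in the Era libraries and Era+VK replicate 1, and 238.4 and 231.3 FPKM in Era+VK replicates 2 and 3. The defining adult globin HBB was at 0.04 FPKM or less in all 6. The summed levels of endothelial and leukocyte markers were at most 1.07 and 0.83 FPKM. In a bulk library, fewer cells of a type and less RNA per cell cannot be told apart. The part of the erythroid transcripts in the differences below was not tested. The tested genes of the set whose groups do not overlap are therefore also given for Era+VK replicate 1 alone against Era.

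Selenocysteine is a cysteine analogue that carries selenium in place of sulphur. It is built on its own tRNA and inserted at UGA, a codon that otherwise ends translation, when the message carries a SECIS element, a hairpin in its untranslated tail that recruits SECISBP2 and the elongation factor EEFSEC. Most selenoproteins are redox enzymes with selenocysteine in the active site. GPX4 is the member best known in ferroptosis, the iron-dependent death by lipid peroxidation, because it uses glutathione to reduce lipid hydroperoxides in membranes. Erastin acts upstream of it by blocking the import of cystine, from which glutathione is made. In RPE, which meets light, oxygen and shed photoreceptor membranes, these enzymes belong to the peroxide defence.

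The UGA codon can be read directly in the annotated transcripts, where it is written TGA. GENCODE 29 (GRCh38) annotates 33 selenocysteine codons in the 22 selenoprotein genes with a row, 1 codon in 19 of the genes, 2 in DIO2 and SELENON and 10 in SELENOP. The coding bases around the codon are shown for the glutathione peroxidases because GPX4 and the abundant GPX1 share the motif. Each window runs over 24 bases on both sides of the codon, with the selenocysteine TGA in capitals.
GPX1, codon 49, chr3:49358132-49358134, minus strand: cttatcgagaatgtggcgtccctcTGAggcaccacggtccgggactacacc
GPX2, codon 40, chr14:64942607-64942609, minus strand: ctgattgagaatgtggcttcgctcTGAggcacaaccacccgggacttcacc
GPX3, codon 73, chr5:151025469-151025471, plus strand: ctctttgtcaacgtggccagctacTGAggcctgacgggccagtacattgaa
GPX4, codon 73, chr19:1105403-1105405, plus strand: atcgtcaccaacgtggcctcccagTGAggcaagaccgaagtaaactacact
In all 4, the TGA is followed by ggc, a glycine codon. The windows of GPX1 and GPX2 were identical at 42 of 51 bases, and those of GPX1 and GPX4 at 31 of 51.

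In the thioredoxin reductases, the codon is the last but 1 before the stop, so that translation that ends at UGA lacks only the catalytic tail. These windows therefore run from 24 bases before the codon to the end of the reading frame, the stop codon included.
TXNRD1, codon 498, chr12:104348413-104348415, plus strand: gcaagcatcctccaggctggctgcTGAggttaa
TXNRD2, codon 523, chr22:19877111-19877113, minus strand: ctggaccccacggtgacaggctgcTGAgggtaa
TXNRD3, codon 642, chr3:126607911-126607913, minus strand: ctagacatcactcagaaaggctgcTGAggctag
In all 3 the TGA follows a glycine and a cysteine codon, ggctgc, and precedes a glycine codon. Over the 33 bases, TXNRD1 was identical to TXNRD3 at 21 and to TXNRD2 at 18.

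DIO2 and the members with an unadjusted p under 0.05 in the comparison of Era+VK with Era are shown next, because the description of single genes turns on them. The DIO2 reading frame holds a catalytic codon and another one that is followed by 7 codons before the stop, and in SELENOO and SELENOK 2 codons lie between the TGA and the stop.
DIO2, codon 133, chr14:80203112-80203114, minus strand: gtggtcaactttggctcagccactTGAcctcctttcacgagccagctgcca
DIO2, codon 266, chr14:80202713-80202715, minus strand: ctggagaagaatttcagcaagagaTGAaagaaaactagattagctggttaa
SELENOO, codon 667, chr22:50217358-50217360, plus strand: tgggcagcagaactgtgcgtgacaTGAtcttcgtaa
SELENOT, codon 49, chr3:150622392-150622394, plus strand: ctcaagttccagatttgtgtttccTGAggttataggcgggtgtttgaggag
SELENOH, codon 44, chr11:57741816-57741818, plus strand: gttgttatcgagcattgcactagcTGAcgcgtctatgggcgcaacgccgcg
SELENOK, codon 92, chr3:53885831-53885833, minus strand: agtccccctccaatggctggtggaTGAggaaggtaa
In SELENOT, SELENOH and SELENOO a cysteine codon stands 3 codons before the TGA, as it does in 5 of the 22 genes, the others being SELENOM and SELENOW. In SEPHS2 the same triplet has both readings, since codon 60 is a selenocysteine TGA and the reading frame also ends in TGA.
SEPHS2, codon 60, chr16:30445548-30445550, minus strand: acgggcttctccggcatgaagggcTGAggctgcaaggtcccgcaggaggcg
Across the 33 codons, the base after TGA was G in 14, C in 11, A in 4 and T in 4.

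A UGA that lies well upstream of the last exon junction can mark a message for nonsense-mediated decay when it is read as a stop, with about 55 bases as the usual limit. By this rule, the first selenocysteine codon lay more than 55 bases upstream of the last junction in 13 genes, among them GPX1 (105 bases), GPX4 (342 bases), SELENOT (470 bases) and SELENOW (243 bases). In the other 9 genes it did not, and these include TXNRD1, DIO2, SEPHS2, SELENOO and SELENOK. The SEPHS2 transcript has 1 exon and so no junction, and it was counted with the 9 genes for that reason. The 13 genes had a median level of 5.03 FPKM over the 6 libraries (range 0.0483 to 109.8), and the 9 genes a median of 12.4 FPKM (range 3.35 to 332.6). The ranges overlap. The median log2 fold change of Era+VK against Era was 0.11 over the 10 tested genes with an upstream codon and 0.08 over the 9 tested genes without, and 0 genes of either class passed the test described below.

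**Figure D1:**
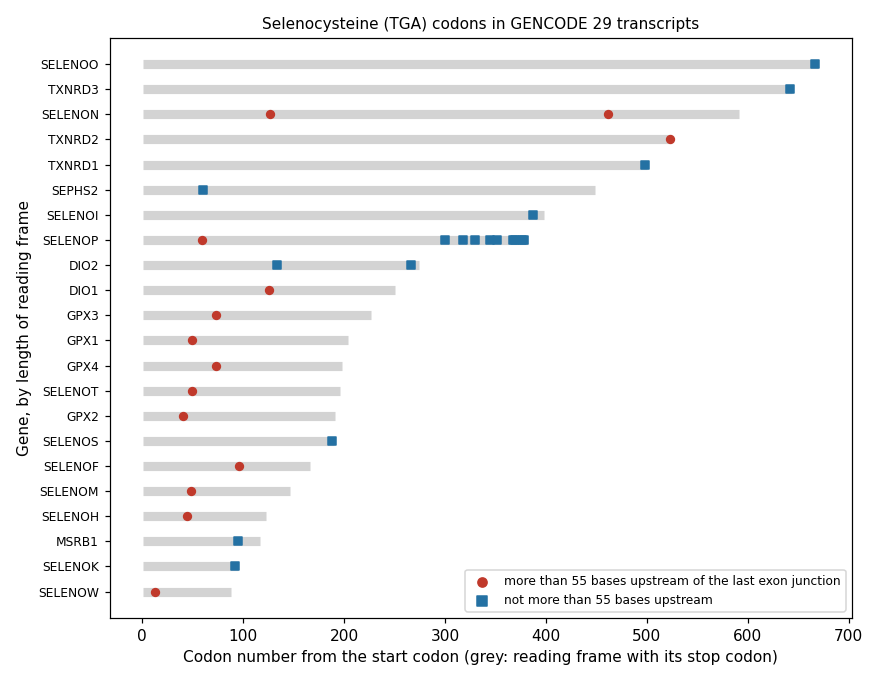
Position of each annotated selenocysteine codon in the reading frame of the 22 selenoprotein genes with a row. The x axis is the codon number from the start codon, grey bars are the reading frames with the stop codon, red circles are codons more than 55 bases upstream of the last exon junction and blue squares are the others. The codon lies near the end in TXNRD1, TXNRD2, TXNRD3, SELENOO, SELENOK and SELENOS, and SELENOP carries 10 codons, 9 of them in its last exon.

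Levels spanned more than 3 orders of magnitude, from TXNRD1 to GPX2. The 5 genes with the highest mean were TXNRD1, DIO2, GPX1, GPX4 and SELENOF, and they stood in this order in each of the 6 libraries, with ranges that did not overlap. They held 83.4% ± 0.277 (SD, n = 3) of the summed selenoprotein FPKM in Era and 81.7% ± 0.479 (SD, n = 3) in Era+VK. The 22 selenoprotein genes summed to 988.0, 983.7 and 966.7 FPKM in the Era libraries and to 950.2, 1014.8 and 932.2 FPKM in the Era+VK libraries. The highest and the lowest of these sums were both Era+VK libraries, so the groups overlap. The sums amounted to 0.406% to 0.426% of all FPKM of a library.

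TXNRD1, the cytosolic thioredoxin reductase that keeps thioredoxin reduced, was at 331.1, 352.8 and 319.3 FPKM in the Era libraries and at 322.7, 347.3 and 322.2 FPKM in the Era+VK libraries. Only 51 genes of the series had a higher mean. The groups overlap fully, and the log2 fold change was -0.02 (95% interval -0.15 to 0.12, adjusted p = 0.924, limma). TXNRD1 alone held 34.1% ± 1.51 (SD, n = 3) of the summed selenoprotein FPKM in Era and 34.2% ± 0.304 (SD, n = 3) in Era+VK. The mitochondrial TXNRD2 had means of 3.09 ± 0.219 and 2.98 ± 0.0850 FPKM in Era and Era+VK (here and below SD, n = 3 each, log2 fold change -0.04), and TXNRD3, the thioredoxin-glutathione reductase known from testis, had means of 3.37 ± 0.30 and 3.32 ± 0.400 FPKM (log2 fold change -0.02). All 3 reductases had a slightly lower estimate in Era+VK, but the sign of TXNRD1 turned under quantile normalization (0.02).

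GPX1, the cytosolic enzyme that reduces hydrogen peroxide, was at 115.2, 108.4 and 110.8 FPKM in Era and at 108.6, 116.5 and 99.4 FPKM in Era+VK. The Era+VK values lay on both sides of the Era values (log2 fold change -0.05, 95% interval -0.19 to 0.10, adjusted p = 0.770, limma). A processed copy, GPX1P1, was listed at 3.43 to 4.47 FPKM in Era and at 3.17 to 3.37 FPKM in Era+VK. Reads could be divided between the 2 copies by the counting, which was not tested. GPX4 (chr19:1103926-1106791) was at 83.6, 78.6 and 90.6 FPKM in Era and at 87.0, 97.1 and 92.5 FPKM in Era+VK. The lowest Era+VK library was below the highest Era library, so the groups overlap. The means were 84.3 ± 6.05 and 92.2 ± 5.05 FPKM (SD, n = 3 each), with a log2 fold change of 0.13 (95% interval -0.02 to 0.28, adjusted p = 0.382, limma), and Era+VK replicate 1 alone against Era gave 0.05. GPX3, the secreted plasma enzyme, had means of 4.74 ± 0.516 and 5.32 ± 0.351 FPKM (log2 fold change 0.14, and 0.22 for Era+VK replicate 1 alone), and GPX2, the gastrointestinal enzyme, was at 0.16 FPKM or less in all 6 libraries and listed at 0.00 in Era replicates 1 and 3.

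Of the deiodinases, which activate or inactivate thyroid hormone, DIO2 was the second most abundant gene of the set. DIO2 (chr14:80197527-80387757, minus strand) converts thyroxine to the active triiodothyronine inside the cell. It was at 232.1, 223.0 and 222.6 FPKM in Era and at 202.0, 208.1 and 183.4 FPKM in Era+VK. Each Era+VK library was below each Era library. The means were 225.9 ± 5.40 and 197.8 ± 12.9 FPKM (SD, n = 3 each), and the log2 fold change was -0.19 (SE 0.06, 95% interval -0.32 to -0.06). This had an unadjusted limma p of 0.0104 and did not pass after adjustment over all genes tested (adjusted p = 0.188). In Era+VK replicate 1 alone the difference was -0.16. The share of DIO2 in the summed selenoprotein FPKM was 23.1% ± 0.417 in Era and 20.5% ± 0.793 in Era+VK (SD, n = 3 each). DIO1, the deiodinase of liver and kidney, was at 0.01 to 0.13 FPKM.

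The promoter of DIO2 was examined for motifs. RefSeq promoter windows of 250 bases before to 50 after the gene start (GRCh38.p14) were found for 28 of the 31 genes by symbol, and SELENOM, SELENOO and SEPSECS had none. The cAMP response element TGACGTCA, which is its own reverse complement, occurs in 1.85% of 35116 windows and, over gene symbols, in 2.25% of 27305. Among the genes of the set it was found for 1 of 28 (3.57%), DIO2, a share near the background. The part of the DIO2 window that holds it is shown because DIO2 is a known target of cAMP signalling, with the motif in capitals, starting 96 bases before the RefSeq start of that window. This start lies inside the longer gene span that GENCODE gives for DIO2.
DIO2, chr14:80212227-80212314, minus strand: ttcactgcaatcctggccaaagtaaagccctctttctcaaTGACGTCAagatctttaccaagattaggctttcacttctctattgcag
The core of the antioxidant response element, TGACNNNGC, was searched on both strands and occurs in 13.3% of the windows, and over gene symbols in 16.1% of 27305. In the set it was found for 6 of 28 genes (21.4%), namely TXNRD1, SELENOK, SELENON, SELENOP, GPX2 and SECISBP2. A match of letters is not a bound site.

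Among the selenoproteins of the endoplasmic reticulum and membranes, SELENOF, which partners the glycoprotein folding checkpoint, was the most abundant, at 62.2, 60.5 and 60.2 FPKM in Era and 58.8, 62.6 and 58.9 FPKM in Era+VK. Its groups overlap (log2 fold change -0.02, adjusted p = 0.858, limma). SELENON, a regulator of calcium pumping in the endoplasmic reticulum and a cause of muscle disease when mutated, had means of 31.6 ± 1.43 and 32.5 ± 1.13 FPKM (log2 fold change 0.04). SELENOS, a part of the complex that removes misfolded proteins, had means of 6.41 ± 0.165 and 6.82 ± 0.261 FPKM (log2 fold change 0.08). SELENOI, which makes phosphatidylethanolamine, had means of 4.77 ± 0.214 and 5.23 ± 0.140 FPKM and no overlap between the groups, with a log2 fold change of 0.11 (adjusted p = 0.341, limma) that was 0.14 for Era+VK replicate 1 alone. SELENOM, a thioredoxin-like protein of the endoplasmic reticulum, had means of 4.30 ± 0.395 and 4.65 ± 0.170 FPKM (log2 fold change 0.09).

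SELENOT (chr3:150602875-150630445), an oxidoreductase of the endoplasmic reticulum membrane, was at 21.2, 18.9 and 20.1 FPKM in Era and 22.5, 24.4 and 21.8 FPKM in Era+VK. All Era+VK libraries were above all Era libraries, by a log2 fold change of 0.18 (SE 0.06, unadjusted p = 0.0155, adjusted p = 0.210, limma). Its processed copy SELENOTP1 was at 0.05 to 0.31 FPKM in Era and 0.54 to 0.87 FPKM in Era+VK, and how reads were divided between the copies was not tested. SELENOT also overlaps SERP1 on the opposite strand over 61 exonic bases (21.4 to 23.2 FPKM). SELENOK (chr3:53884410-53891988, minus strand), which helps palmitoylation and calcium entry, was at 12.0, 11.8 and 10.4 FPKM in Era and 12.4, 15.6 and 12.6 FPKM in Era+VK. The groups do not overlap, with a log2 fold change of 0.23 (SE 0.09, unadjusted p = 0.0399, adjusted p = 0.294, limma), and Era+VK replicate 2 lay farthest from Era. In Era+VK replicate 1 alone against Era the difference was 0.16 for SELENOT and 0.12 for SELENOK.

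SELENOO, SELENOH, MSRB1 and SELENOW, selenoproteins of mitochondria, nucleus and cytosol, are described together, and all 4 had a higher mean in Era+VK. SELENOO (chr22:50200979-50217616), a mitochondrial pseudokinase that attaches AMP to proteins, was at 15.3, 16.6 and 15.9 FPKM in Era and 18.1, 17.9 and 19.0 FPKM in Era+VK. The highest Era library (16.6 FPKM) was below the lowest Era+VK library (17.9 FPKM), and the log2 fold change of 0.19 (SE 0.05, 95% interval 0.08 to 0.30) had the smallest p of the set (unadjusted p = 0.00425, adjusted p = 0.137, limma). SELENOH (chr11:57741250-57743554), a nucleolar DNA-binding protein, was at 11.3, 10.3 and 10.7 FPKM in Era and 11.4, 13.5 and 11.9 FPKM in Era+VK. Here the highest Era and the lowest Era+VK library nearly touched, with a log2 fold change of 0.17 (SE 0.07, unadjusted p = 0.0368, adjusted p = 0.288, limma). MSRB1, a methionine sulfoxide reductase that acts on oxidised actin, had means of 9.60 ± 0.985 and 11.0 ± 0.916 FPKM with overlapping groups (log2 fold change 0.18). SELENOW, a small glutathione-dependent redox protein, had means of 4.46 ± 0.0854 and 5.08 ± 0.833 FPKM (SD, n = 3 each). In Era+VK replicate 1 alone against Era the difference was 0.17 for SELENOO, 0.08 for SELENOH and 0.05 for MSRB1, and it turned to -0.07 for SELENOW.

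SELENOP, the secreted carrier with 10 selenocysteine codons that delivers selenium to other tissues, was at 0.39, 0.49 and 0.56 FPKM in Era and at 0.81, 0.88 and 0.71 FPKM in Era+VK. Each Era+VK library was above each Era library (means 0.480 ± 0.0854 and 0.800 ± 0.0854 FPKM, SD, n = 3 each). SELENOP was below the level required for a test. In a fit without that filter the log2 fold change was 0.28 (SE 0.08, unadjusted p = 0.0124, adjusted p = 0.377, limma), on the scale of FPKM + 1, which understates changes at such levels. Over 1452 exonic bases, SELENOP (chr5:42799880-42887392, minus strand) overlaps CCDC152 on the opposite strand, which was at 1.35 to 1.75 FPKM. Whether the library kept strand is not given in the sources used here, so reads of the 2 genes cannot be told apart.

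The machinery that makes and inserts selenocysteine was present at moderate to low levels. SEPHS2, which makes the selenium donor selenophosphate and is itself a selenoprotein, was at 31.1, 31.4 and 32.1 FPKM in Era and 30.8, 33.1 and 31.7 FPKM in Era+VK. Its groups overlap, with a log2 fold change of 0.01 (95% interval -0.09 to 0.11, adjusted p = 0.916, limma) whose sign turned under quantile normalization and under rescaling without mitochondrially encoded genes. SEPHS1, the paralogue that does not make selenophosphate, had means of 16.8 ± 0.824 and 16.7 ± 0.567 FPKM. EEFSEC, the elongation factor for selenocysteine tRNA, had means of 6.83 ± 0.981 and 7.90 ± 0.0351 FPKM (SD, n = 3 each). Its groups did not overlap (log2 fold change 0.19, adjusted p = 0.337, limma), and Era+VK replicate 1 alone gave 0.20. Era replicate 1 was low at 5.76 FPKM, against 7.03 and 7.69 FPKM in Era replicates 2 and 3. Without Era replicate 1 the log2 fold change of EEFSEC was 0.09. EEFSEC overlaps RUVBL1 on the opposite strand over 370 exonic bases. SECISBP2, which binds the SECIS element, had means of 4.48 ± 0.115 and 4.39 ± 0.282 FPKM (log2 fold change -0.03). TRNAU1AP, a protein bound to the selenocysteine tRNA, had means of 3.30 ± 0.187 and 3.73 ± 0.275 FPKM (log2 fold change 0.14, and 0.22 for Era+VK replicate 1 alone). The enzymes that convert serine to selenocysteine on the tRNA were the lowest of this group. SEPSECS had means of 1.25 ± 0.185 and 1.25 ± 0.0819 FPKM, and the kinase PSTK had means of 0.823 ± 0.0493 and 0.820 ± 0.0781 FPKM.

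**Figure D2:**
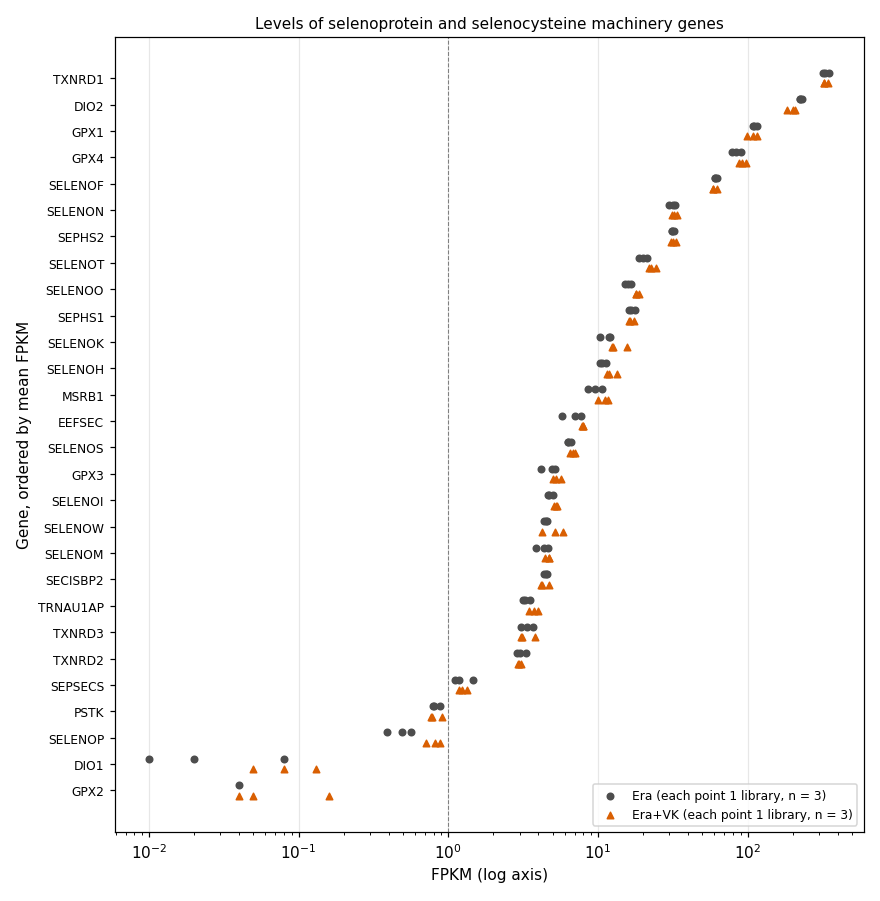
FPKM of the 28 genes in each library, on a log axis, ordered by mean. Grey circles are the 3 Era libraries, orange triangles the 3 Era+VK libraries, and the dashed line is 1 FPKM. Values of 0.00 (GPX2 in 2 Era libraries) cannot be drawn on a log axis. TXNRD1 lies highest at 319.3 to 352.8 FPKM, and the groups overlap for most genes.

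In the order of levels, SEPHS2 and SELENON did not differ beyond their spread (SELENON was higher in 4 of 6 libraries), as their ranges overlap. SELENOO was below SEPHS1 in the 3 Era libraries (by 0.28 to 1.33 FPKM) and above it in the 3 Era+VK libraries (by 0.57 to 2.46 FPKM), and this difference in order was not tested. GPX3, SELENOI, SELENOW, SELENOM and SECISBP2 followed each other with overlapping ranges, between 3.87 and 5.87 FPKM. Below them, SEPSECS, PSTK and SELENOP were separated from TXNRD2 in each library.

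Across the set, 0 of the 24 genes tested passed an adjusted p of 0.05 (limma on log2(FPKM + 1), Benjamini-Hochberg over 11981 genes), against a background of 0.618% of all genes tested (74 genes), of which 0.134% were higher and 0.484% lower in Era+VK. At an unadjusted p under 0.05 there were 5 genes, SELENOO, SELENOT, SELENOH and SELENOK with a higher and DIO2 with a lower level in Era+VK, or 20.8% of 24, where the background was 15.8%. The groups did not overlap for 7 genes (29.2%), those 5 together with EEFSEC and SELENOI, with a background of 22.1%. Of the 24 genes, 6 were higher in Era+VK without overlap, against 1807 of all 11981 genes tested (15.1%). DIO2 was lower without overlap, 1 of the 24, against 843 of 11981 (7.04%). With 3 libraries against 3, the exact permutation test of a single gene cannot go below 0.1. Any gene whose groups do not overlap has this value, so the test adds nothing for the 7 genes.

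By subgroup, the median log2 fold change was 0.17 over SELENOO, SELENOH, MSRB1 and SELENOW, and 0.13 over the 3 glutathione peroxidases tested. It was 0.09 over the 7 genes of the endoplasmic reticulum and membranes, 0.00 over the 5 machinery genes beside SEPHS2 and -0.02 over the 3 thioredoxin reductases. The median was 0.09 over the 24 genes and 0.03 over all genes tested. Of the 24 genes, 16 had a positive estimate (66.7%), and of all genes tested 63.3% had. The estimates lay between -0.19 and 0.23, and the bound of a 95% interval farthest from 0 was 0.44, that of SELENOK. Of the 24 genes, Era+VK replicate 2 was the highest library for SELENOT, SELENOH, SELENOK, MSRB1, SELENOW, GPX1, GPX4, SELENOF, SEPHS2, SELENOS and TXNRD3. Era+VK replicate 3 was highest for SELENOO, SELENON and SECISBP2, and Era+VK replicate 1 for EEFSEC, GPX3, SELENOI, SELENOM and TRNAU1AP. An Era library was highest for TXNRD1, DIO2, SEPHS1, TXNRD2 and SEPSECS.

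**Figure D3:**
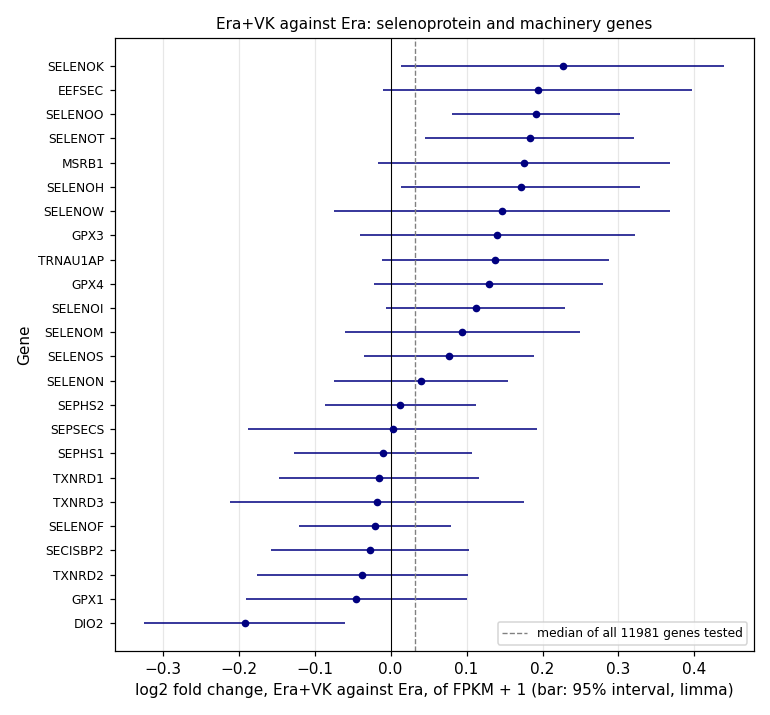
Estimated log2 fold change of FPKM + 1, Era+VK against Era, for the 24 genes tested. Points are limma estimates from 3 libraries per group, bars are 95% intervals, the solid line is 0 and the dashed line the median of all 11981 genes tested (0.03). The intervals of SELENOO, SELENOT, SELENOH, SELENOK and DIO2 exclude 0 before adjustment, and none of the 24 genes passed after it.

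**Figure D4:**
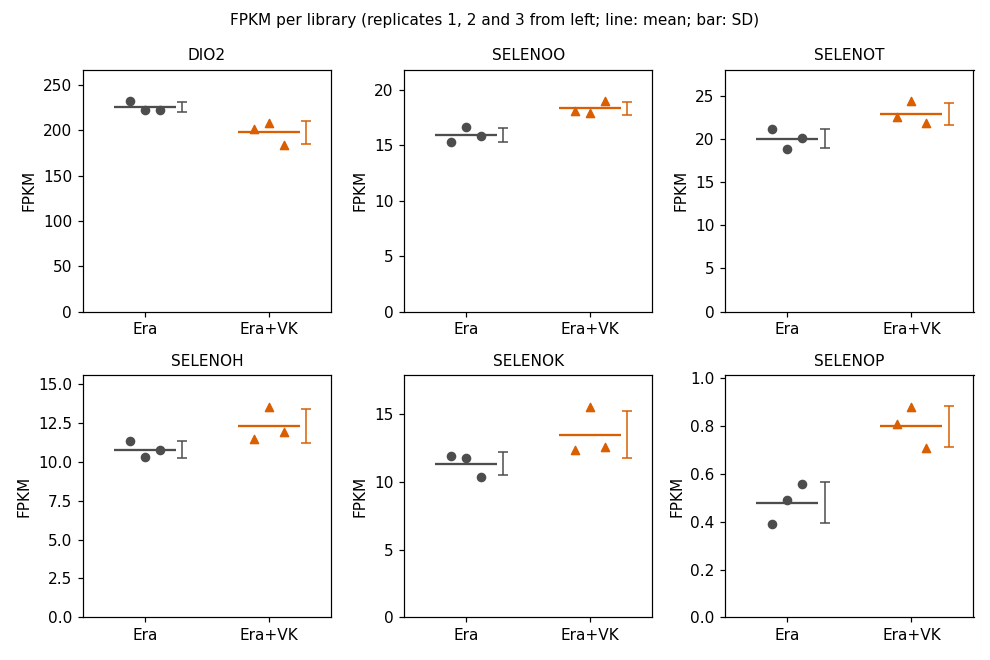
FPKM per library of DIO2 and of 5 genes with a higher level in Era+VK. Points are replicates 1, 2 and 3 from left to right, lines are means and bars SD (n = 3), on axes that start at 0. In each panel the groups do not overlap, most narrowly for SELENOH (11.34 against 11.43 FPKM), and SELENOP stays under 1 FPKM.

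The genes around this set were taken from a list of 39 genes: glutathione and thioredoxin partners, cysteine-containing relatives, selenium handling, modification of the selenocysteine tRNA, and proteins that bind selenoprotein messages or remove truncated products. Of these, 36 have a row and 34 were tested. SLC7A11 alone passed, 1 of 34 genes against the background of 0.618%, and 6 of the 34 (17.6%) had an unadjusted p under 0.05, 3 in each direction, near the 15.8% of all genes. SLC7A11 encodes the transporter subunit of system xc-, the direct target of erastin. It was at 7.22, 9.29 and 7.84 FPKM in Era and at 4.50, 4.41 and 5.33 FPKM in Era+VK. The groups are well apart, and SLC7A11 fell by 0.66 on the log2 scale (SE 0.10, adjusted p = 0.0337, limma). This call was lost without Era replicate 1 (adjusted p = 0.0832), Era replicate 2 (0.111), Era replicate 3 (0.133), Era+VK replicate 1 (0.0911) or Era+VK replicate 2 (0.0650), and held without Era+VK replicate 3 (0.0469). Era+VK replicate 1 alone against Era gave -0.72. SLC3A2, the other subunit of system xc-, was at 46.1, 47.1 and 50.5 FPKM in Era and at 37.6, 40.8 and 41.3 FPKM in Era+VK. Its groups do not overlap, but it did not pass (log2 fold change -0.26, SE 0.05, unadjusted p = 0.00164, adjusted p = 0.0923, limma). The groups did not overlap for 9 of the 34 genes (26.5%, 5 higher and 4 lower in Era+VK), with a background of 22.1%.

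The steps between cystine import and the selenoenzymes did not pass the test. GCLC, the catalytic subunit of the rate-limiting enzyme of glutathione synthesis, had means of 5.01 ± 0.411 and 5.81 ± 0.260 FPKM (log2 fold change 0.18, unadjusted p = 0.0227, adjusted p = 0.238, limma), without overlap, and a difference of 0.13 in Era+VK replicate 1 alone. Its modifier subunit GCLM had 8.82 ± 0.817 and 9.75 ± 1.14 FPKM (log2 fold change 0.13, adjusted p = 0.526). GSR, which regenerates glutathione for the peroxidases, had 16.1 ± 0.743 and 17.0 ± 1.21 FPKM (log2 fold change 0.07, adjusted p = 0.599), and TXN, the thioredoxin that TXNRD1 reduces, had 72.0 ± 1.98 and 69.7 ± 11.9 FPKM (log2 fold change -0.06, adjusted p = 0.829, and -0.15 for Era+VK replicate 1 alone). TXN spread more widely in Era+VK (61.3 to 83.3 FPKM) than in Era (69.9 to 73.8 FPKM).

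**Figure D5:**
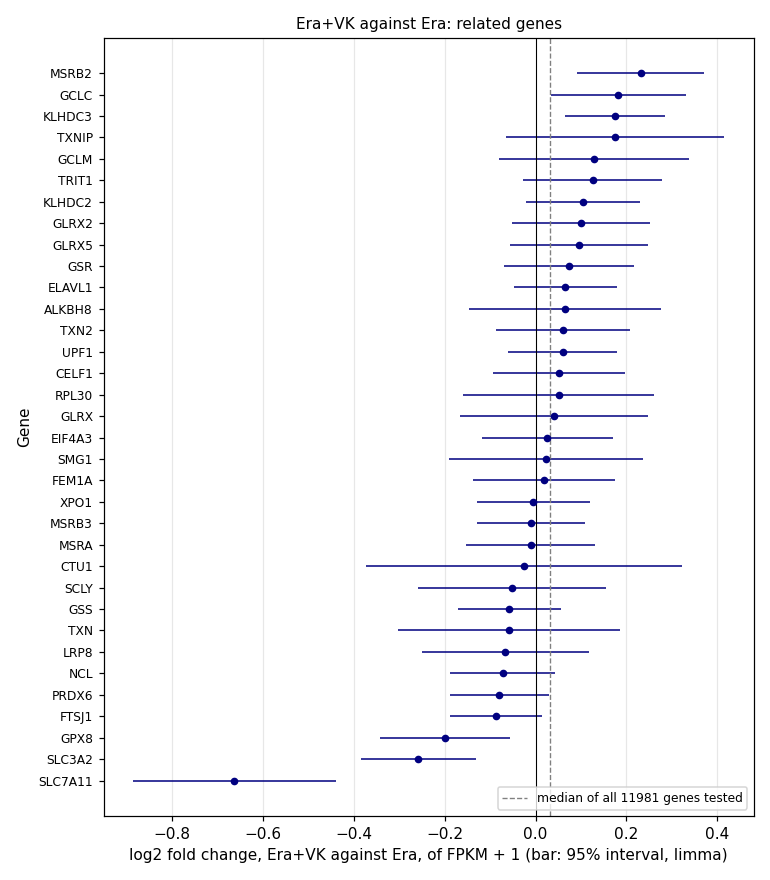
Estimated log2 fold change of FPKM + 1, Era+VK against Era, for the 34 related genes tested, drawn as for the selenoprotein genes, with 95% intervals. SLC7A11 lies farthest from 0 at -0.66 and is the only related gene with an adjusted p under 0.05.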

How the data were processed

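Gene-level RNA-seq values from 3 Era and 3 Era+VK libraries of ARPE-19 were analysed. What the authors deposited is 1 FPKM value per gene with 2 decimals, without counts. The submitters' processing notes name cutadapt, HISAT2, StringTie 2.1.6 and the build mm10, a mouse build, whereas the rows carry human Ensembl identifiers. The build behind the values is therefore uncertain, and positions and codons are from GENCODE 29 on GRCh38, matched by identifier for all 28 genes. The cell-line label increases by 1 in successive samples, while every title names ARPE-19. The study describes its experiments as independent repeats, but the labels do not tie each library to a culture, so p-values measure the spread between these samples, part of which may be technical. FPKM are relative to all fragments of a library, so a few abundant genes move all others, and no counting error can be given. In single-exon genes, low values had a concentration on whole-read steps of 0.409 to 0.442, where 1 would be whole reads. No value for data without steps was computed, so partial steps cannot be told from none. Count models were not used.

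The test was limma 3.58.1 in R 4.3.3 (empirical Bayes with a trend, two-sided) on log2(FPKM + 1) for the 11981 genes whose mean was 1 FPKM or more. Benjamini-Hochberg adjustment covered all of them, with a threshold of 0.05. Fold changes are on that scale and understate the change of low genes. The script was tested on simulated data. The genes of the set, the related genes and the marker lists were chosen with earlier results of these data known, and no list was tested as a set. Values in every library are given for genes of the set with an unadjusted p under 0.05, the 5 most abundant genes, GPX4, TXNRD1, SELENOP and SEPHS2. SLC7A11, GCLC, GCLM, GSR and TXN were always named among the related genes, and SLC3A2 was added as the other subunit of system xc-. The marker lists were native RPE, ARPE-19 cytoskeleton (KRT8, KRT18 and VIM, 1345 to 1354 FPKM in sum in Era and 1172 to 1209 FPKM in Era+VK, where VIM was lower at 750.2 to 792.1 against 911.3 to 952.4 FPKM and KRT8 higher at 191.5 to 208.8 against 170.8 to 187.5 FPKM), erythroid, endothelial and leukocyte. The alternatives were a pseudocount of 0.1, no filter, at least 1 FPKM in every library, quantile normalization, rescaling without mitochondrially encoded genes, a replicate block, each library left out, and Era+VK replicate 1 alone. An overlap with 1 other gene is not reported here.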

Additional observations from a re-analysis of the deposited data

How the results depend on the processing

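In each of 13 alternatives, 0 of the selenoprotein and selenocysteine genes passed, with the lowest adjusted p at 0.0937 (limma, DIO2 without Era+VK replicate 2) and 2 to 8 genes at an unadjusted p under 0.05. The signs of DIO2, SELENOO, SELENOT, SELENOH and SELENOK did not turn in any of their 65 values, and of 312 values for the 24 genes 22 turned, in 8 genes. The count of all genes called, 74, was 1 without the filter, 122 with at least 1 FPKM in every library, 112 under quantile normalization, 35 with Era+VK replicate 1 alone, and 2 to 70 with 1 library left out, where 2 came without Era replicate 1 or 2, 5 without Era replicate 3 and 42 without Era+VK replicate 3. The share of higher genes among those called was 21.6%, and 42.9% without Era+VK replicate 1. The cause was not tested, other than that leaving out a library means fewer samples and no filter means more genes tested. SLC7A11 was the 1 related gene called, and the count was 0 without the filter (adjusted p = 0.161), 0 with Era+VK replicate 1 alone, and 0 to 1 with 1 library left out.

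The replicate numbers were checked as a pairing. Same-numbered libraries correlated at 0.021 to 0.1035 in their deviations from the group means, and 5 of 6 libraries correlated best with their own number, a hint from the data and not from the design. With the replicate block, 42 genes were called, 11.9% of them higher, and 0 related genes (SLC7A11 adjusted p = 0.0714).

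Beside SELENOW (0.15), GSR (0.07) and TXN (-0.06), the signs that turned belonged to estimates within 0.05 of 0. Under quantile normalization the log2 fold change was 0.025 for TXNRD1, -0.00074 for SEPHS2 and -0.015 for SEPSECS. Rescaled without mitochondrially encoded genes it was -0.010 for SEPHS2 and -0.011 for SEPSECS. With Era+VK replicate 1 alone it was -0.034 for SEPHS2, -0.068 for SELENOW, -0.0097 for SEPSECS and -0.034 for GSR. With 1 library left out it ranged from -0.051 to 0.024 for TXNRD1, -0.099 to 0.013 for GPX1, -0.013 to 0.036 for SEPHS2, -0.038 to 0.027 for SEPHS1, -0.093 to 0.031 for TXNRD3, -0.071 to 0.0048 for TXNRD2, -0.042 to 0.069 for SEPSECS and -0.19 to 0.027 for TXN. Without counts, the depth that limits the low genes SELENOP, PSTK, DIO1 and GPX2 is unknown.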
